A study of Mus musculus with 34 samples.

Results

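Voltage-gated sodium and calcium channel genes were taken from the array by their platform symbol. A gene was a member if its symbol was Scn followed by digits and a or b, or if it began with Cacna, Cacnb or Cacng. Each gene was read on 1 probe set, the brightest on average. The rule found 35 genes on 85 probe sets, out of 18194 genes named on the array. A probe set was tested if it reached a log2 signal of 4 on at least 4 arrays. 24 members passed this filter and 11 did not, among 11990 genes that passed.

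The tissue was thoracic spinal cord of C57BL/6J mice aged 8 to 12 weeks, backcrossed for more than 20 generations. KO mice lacked trkB.T1, the truncated form of the neurotrophin receptor TrkB, and WT mice carried it; the labels name no cell-type-restricted deletion. Cords came from controls labelled sham (4 KO, 4 WT) and from day 1 (4 KO, 5 WT), day 3 (5 KO, 4 WT) and day 7 (4 KO, 4 WT) after a moderate contusion. The control arrays carry description codes that begin with Nav, and whether these animals had surgery is not stated there. The labels call the arrays biological replicates, and 1 array stands for 1 sample.

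Voltage-gated sodium channels carry the upstroke of the action potential and are clustered at the axon initial segment and at nodes of Ranvier. A pore-forming alpha subunit (the Scn genes ending in a) is joined by beta subunits (those ending in b) that set its gating and hold it at the membrane. Voltage-gated calcium channels turn depolarisation into calcium entry, which releases transmitter at synapses and paces firing. Their pores are encoded by Cacna1 genes and their auxiliary subunits by Cacna2d and Cacnb genes, while most Cacng products are auxiliary proteins of AMPA-type glutamate receptors.

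Each of the 34 arrays correlated best with a group of its own time. Only 21 of them correlated best with their own group, and the rest with the other genotype at that time. For day 1 WT replicates 1 and 2 the title and other label fields disagree on the time, and the titles were followed. Ntrk2, the gene changed in the KO, was not lower in KO on every probe set. On 1435305_at it read 10.5 to 10.64 in sham KO and 10.26 to 10.41 in sham WT. On probe set 1420838_at it read 3.12 to 4.94 on the KO arrays and 10.01 to 10.85 on the WT arrays. The exception was the library labelled sham KO replicate 2, at 9.46. The KO minus WT differences named below for sham cords are also given without it, and other results include it unless stated. Day 3 KO replicate 3 gave the lowest of all 34 values for 14 of the 24 tested members, and day 1 WT replicate 4 did so for 5. The mean of 17 pan-neuronal genes was 10.57 on day 3 KO replicate 3, 10.72 on day 3 KO replicate 4 and 11.46 on day 1 WT replicate 4, against 12.09 to 12.23 in sham KO and 12.13 to 12.18 in sham WT. The other arrays of their groups read 11.3 to 11.56 in day 3 KO and 11.6 to 11.84 in day 1 WT. Day 3 WT replicate 2, at 11.11, was not set apart. Day 3 KO replicates 3 and 4 and day 1 WT replicate 4 are called the 3 arrays that stand apart below. Results that lost a call or moved by over 1.5 times without those 3 arrays are given with and without them. The 17 pan-neuronal genes and the 5 interneuron genes all passed the filter, but of 6 motor neuron genes Chat, Slc18a3, Slc5a7 and Mnx1 stayed under a log2 signal of 4 on every array.

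Most of the channel genes were lower after contusion. Over the mean of KO and WT, 18 of the 24 tested members fell at day 1, 18 on day 3 and 20 by day 7, where a call means a limma adjusted p under 0.05 over all probe sets tested. Of all 11990 genes, 37.8%, 42.8% and 39% were called lower on days 1, 3 and 7. A single member rose at day 1 (Cacng5) and a single member at day 3 (Scn9a), and 0 at day 7, where 30.2%, 34% and 28.9% of all genes were called higher. The median log2 difference of the members on days 1, 3 and 7 was −0.51, −0.95 and −0.75, beside −0.05, −0.06 and −0.07 for all genes tested. The injured arrays lay wholly below the sham arrays for 12, 16 and 17 members on days 1, 3 and 7, beside 20.8%, 25.9% and 26.1% of all genes. They lay wholly above them for Cacng5 at day 1 and for 0 members at day 3 and day 7 (17.2%, 19.9% and 19.7% of all genes).

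The pan-neuronal genes moved in the same direction. Of 17, the numbers that fell on days 1, 3 and 7 were 12, 17 and 17, with median log2 differences of −0.37, −0.83 and −0.64, and 0 rose. Of 5 interneuron genes, 4, 5 and 5 fell on those days and 0 rose, with medians of −0.56, −1.18 and −0.71. Of 10 microglia and macrophage genes, 7, 9 and 10 rose on days 1, 3 and 7 and 2, 0 and 0 fell, with medians of 1.06, 2.89 and 3.54. In whole cord, that is in bulk tissue, fewer neurons and less channel RNA per neuron cannot be told apart. The part that these shifts in cell make-up have in the channel values was not tested.

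**Figure D1:**
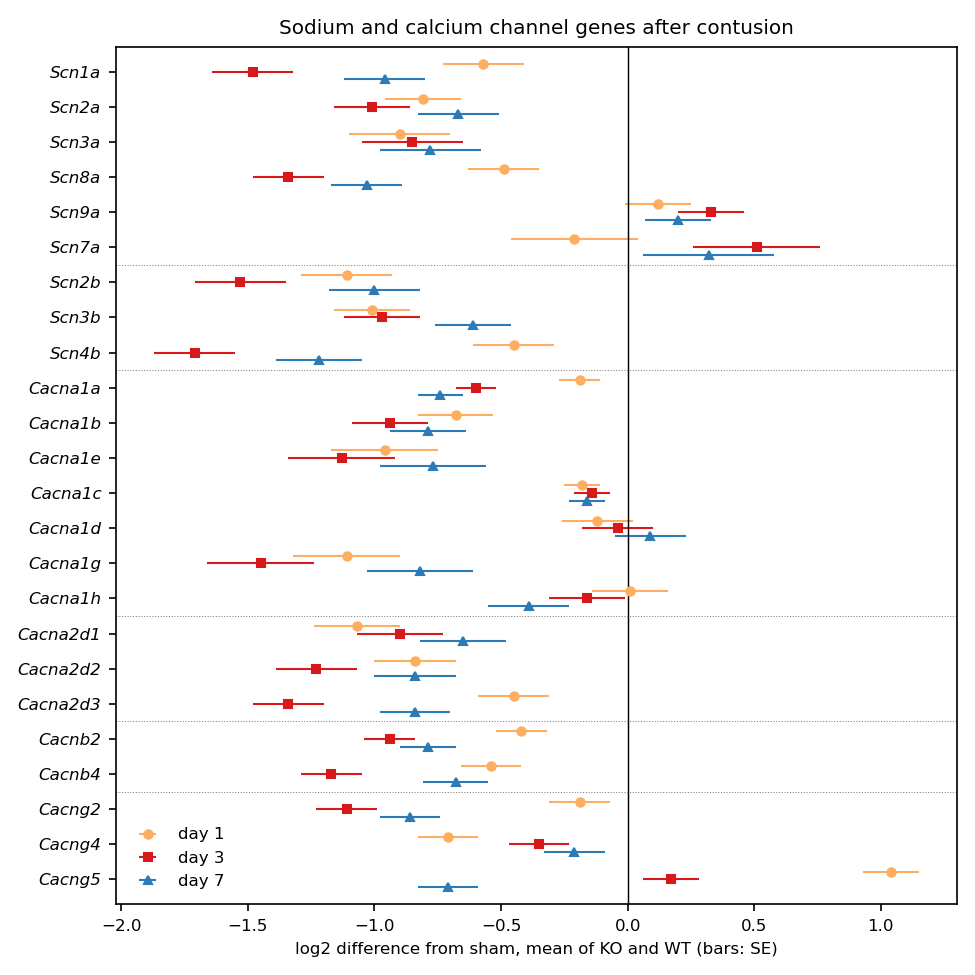
Log2 difference from sham (horizontal axis, mean of KO and WT) for the 24 tested channel genes at day 1 (circles), day 3 (squares) and day 7 (triangles); bars are limma standard errors. Rows run from sodium channel pores at the top to Cacng genes at the bottom. Most points lie left of 0, Scn4b at day 3 lies furthest left (−1.71), and Cacng5 at day 1 lies furthest right (1.04).

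Scn4b, a sodium channel beta subunit that shapes resurgent current in fast-firing neurons, showed the largest decrease of any member at day 3. In sham cords it read 10.59, 10.85, 10.53 and 10.66 in KO and 10.72, 10.57, 10.41 and 10.49 in WT, and at day 1 10.03, 10.25, 10.61 and 10.38 in KO and 9.87, 9.76, 10.23, 9.73 and 10.32 in WT. At day 3 it read 9.10, 9.21, 8.46, 7.65 and 9.54 in KO and 8.99, 8.81, 8.96 and 9.24 in WT, and at day 7 9.39, 9.38, 9.38 and 9.36 in KO and 9.57, 9.66, 9.19 and 9.16 in WT. Day 1 arrays overlapped sham arrays, while every day 3 and day 7 array lay below them. On days 1, 3 and 7 the log2 differences from sham were −0.45 ± 0.16, −1.71 ± 0.16 and −1.22 ± 0.17 (SE; adjusted p = 0.0177, 2.42e-10 and 3.89e-07). The day 3 decrease was 3.26-fold, and without the 3 arrays that stand apart its log2 difference was −1.46.

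Scn1a, a pore subunit prominent in inhibitory interneurons, followed the same course. It read 12.73, 12.86, 12.77 and 12.79 in sham KO, 12.81, 12.80, 12.62 and 12.71 in sham WT, 12.03, 12.31, 12.45 and 12.31 in day 1 KO and 12.00, 12.04, 12.32, 11.82 and 12.39 in day 1 WT. It then read 11.57, 11.80, 10.34, 10.39 and 11.74 in day 3 KO, 11.46, 10.94, 11.50 and 11.70 in day 3 WT, 11.87, 11.77, 11.83 and 11.88 in day 7 KO and 11.79, 11.92, 11.65 and 11.74 in day 7 WT. Injured and sham arrays did not overlap on any day, and day 3 held the lowest values. Against sham the log2 differences of days 1, 3 and 7 were −0.57 ± 0.16, −1.48 ± 0.16 and −0.96 ± 0.16 (SE; adjusted p = 0.00253, 1.85e-09 and 8.42e-06). A second probe set, 1441728_at, gave −1.04, −2.42 and −1.65.

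Scn8a encodes the main pore subunit of mature axon initial segments and nodes. It read 11.82, 12.04, 11.85 and 11.92 in sham KO, 11.88, 11.96, 11.81 and 11.65 in sham WT, 11.14, 11.50, 11.66 and 11.60 in day 1 KO and 11.17, 11.05, 11.47, 11.10 and 11.62 in day 1 WT. It read 10.74, 10.95, 9.74, 9.78 and 10.82 in day 3 KO, 10.65, 10.32, 10.66 and 10.92 in day 3 WT, 10.95, 10.91, 10.85 and 10.94 in day 7 KO and 10.73, 10.88, 10.64 and 10.77 in day 7 WT. Day 1 arrays reached up to the sham range, and all day 3 and day 7 arrays were lower. Relative to sham, the log2 differences on days 1, 3 and 7 were −0.49 ± 0.14, −1.34 ± 0.14 and −1.03 ± 0.14 (SE; adjusted p = 0.0025, 6.41e-10 and 2.53e-07).

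Scn2a and Scn3a, pore subunits known from immature and unmyelinated axons, were already low at day 1. Scn2a ranged from 9.98 to 10.39 in KO and from 9.41 to 10.33 in WT at day 1, against a lowest value of 10.79 in sham KO and 10.86 in sham WT. Its log2 difference was −0.81 ± 0.15 at day 1 (adjusted p = 4.84e-05), −1.01 ± 0.15 at day 3 and −0.67 ± 0.16 at day 7. Scn3a changed by −0.90 ± 0.20 at day 1 (adjusted p = 0.000265), −0.85 ± 0.20 at day 3 and −0.78 ± 0.20 at day 7. Its day 3 arrays overlapped sham arrays, reaching 8.23 against a lowest sham value of 7.98. Scn2a and Scn3a sit side by side on mouse chromosome 2 in the RefSeq annotation of GRCm38.p6, as do Scn1a, Scn9a and Scn7a.

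Scn9a and Scn7a, which follow Scn1a on the chromosome, were not called lower on any day. Scn9a encodes a pore best known from sensory and sympathetic neurons, and Scn7a a sodium-sensing channel that is not gated by voltage. Scn9a differed from sham by 0.12 at day 1, by 0.33 ± 0.13 at day 3 (adjusted p = 0.0199) and by 0.20 at day 7, and only the day 3 value was called. Its highest array at day 3 was KO replicate 3 at 7.13, against 5.74 to 6.23 on the other 4 day 3 KO arrays. Without the 3 arrays that stand apart the difference was 0.21 and its call was lost (adjusted p = 0.0513). Its probe set, 1442810_x_at, is of a type that can match other transcripts. Scn7a differed from sham by −0.21, 0.51 and 0.32, with no call (adjusted p = 0.0715 at day 3), and it too was highest on day 3 KO replicate 3, at 7.61.

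The beta subunits Scn2b and Scn3b fell early. Scn2b, which is linked covalently to the pore and helps bring it to the membrane, read 10.70, 10.69, 10.70 and 10.64 in sham KO, 10.57, 10.71, 10.81 and 10.75 in sham WT, 9.41, 9.80, 9.67 and 9.85 in day 1 KO and 9.33, 9.75, 9.87, 8.97 and 9.52 in day 1 WT. It read 9.43, 9.70, 7.88, 8.49 and 9.63 in day 3 KO, 9.58, 8.72, 9.29 and 9.61 in day 3 WT, 9.77, 9.87, 9.84 and 9.83 in day 7 KO and 9.48, 9.76, 9.59 and 9.44 in day 7 WT. Every injured array lay below every sham array. On days 1, 3 and 7 the log2 differences from sham were −1.11 ± 0.18, −1.53 ± 0.18 and −1.0 ± 0.18 (SE; adjusted p = 5.6e-06, 1.18e-08 and 3.09e-05). Scn3b, a non-covalently bound beta subunit, gave −1.01 ± 0.15 (adjusted p = 1.56e-06), −0.97 ± 0.15 and −0.61 ± 0.15. Its day 7 arrays overlapped sham arrays, reaching 7.71 against a lowest sham value of 7.66.

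Scn2b and Scn4b are neighbouring coding genes on mouse chromosome 9, and their courses are set side by side here. The pair was singled out after its values had been seen, so its difference is a description with no test. Taken within each array, the log2 signal of Scn4b minus that of Scn2b averaged −0.27 ± 0.42 at day 3 (SD, n = 9, −0.85 to 0.58) and 0.56 ± 0.28 at day 1 (SD, n = 9, 0.01 to 0.94). The change between the days was −0.82, and −0.84 without the 3 arrays that stand apart (n = 7 and 8). The difference ranged from −0.40 to 0.16 in sham and from −0.49 to 0.09 at day 7. Only its change is informative, since signals of different probe sets share no scale.

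**Figure D2:**
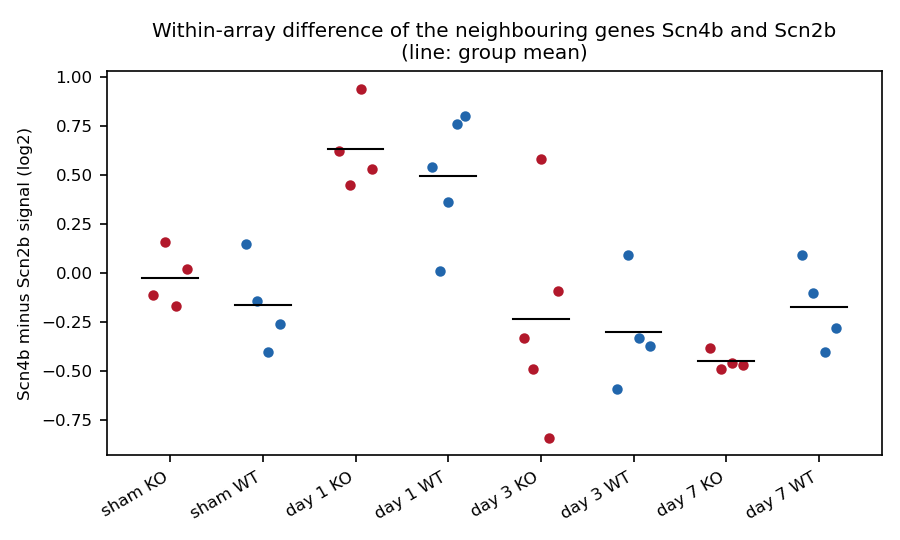
Scn4b minus Scn2b log2 signal within each array (vertical axis), by group in the order sham, day 1, day 3 and day 7 with KO left of WT; points are arrays and lines are group means. The day 1 arrays lie between 0.01 and 0.94 and the day 3 arrays between −0.85 and 0.58.

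The promoters of this pair are shown because the genes are neighbours and their values are set side by side, and that of Cacng5 because it was the member that rose at day 1. RefSeq windows of 300 bases around annotated starts (GRCm38.p6) were found for 27 of the 35 members, 37 windows in all. The windows shown are chr9:45138374-45138673 on the plus strand for Scn4b, chr9:45117626-45117925 on the plus strand for Scn2b and chr11:107915006-107915305 on the minus strand for Cacng5. Capitals mark a match to the AP-1 motif TGANTCA or to the STAT motif TTCNNNGAA, which do not overlap, with positions counted from 1 at the 5′ end.
Scn4b: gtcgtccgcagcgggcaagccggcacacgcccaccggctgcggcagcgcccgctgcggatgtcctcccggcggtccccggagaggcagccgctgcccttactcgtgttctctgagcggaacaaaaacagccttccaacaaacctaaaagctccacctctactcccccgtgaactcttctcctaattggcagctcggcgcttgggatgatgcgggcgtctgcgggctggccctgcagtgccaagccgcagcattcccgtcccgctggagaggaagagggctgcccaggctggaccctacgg
Scn2b: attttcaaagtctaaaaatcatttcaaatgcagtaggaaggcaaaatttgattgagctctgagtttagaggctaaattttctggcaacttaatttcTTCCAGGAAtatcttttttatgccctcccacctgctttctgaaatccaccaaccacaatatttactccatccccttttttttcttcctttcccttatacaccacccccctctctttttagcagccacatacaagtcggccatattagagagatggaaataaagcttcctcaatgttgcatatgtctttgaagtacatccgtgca
Cacng5: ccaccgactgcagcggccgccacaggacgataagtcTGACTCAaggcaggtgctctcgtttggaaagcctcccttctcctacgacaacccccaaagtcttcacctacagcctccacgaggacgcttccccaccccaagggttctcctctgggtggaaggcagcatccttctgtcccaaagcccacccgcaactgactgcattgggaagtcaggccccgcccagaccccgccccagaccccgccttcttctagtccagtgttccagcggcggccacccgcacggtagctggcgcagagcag

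Cacng5 held an AP-1 match at position 37 in this window and none in a second window of the same gene, and it was the only member with such a match. On either strand, the motif was in 1 of the 37 member windows and in 7.81% of 32851 windows of all genes. Scn2b held a STAT match at position 97. Windows of Cacna1c, Scn2a and Scn9a held that motif too, which made 4 of 37 member windows against 8.3% of all windows. The Scn4b window held neither. The cyclic AMP response element TGACGTCA was in 0 of the 37 member windows (1.79% of all windows), and the core of the RE1 element also in 0 (0.0365% of all). A match is a run of letters and says nothing of a factor at the site.

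Among the tested calcium channel pores, Cacna1a, Cacna1b, Cacna1e and Cacna1g fell on all 3 days. Cacna1g, a T-type pore that supports burst firing, read 6.15, 5.68, 5.82 and 5.74 in sham KO, 6.24, 6.10, 6.12 and 6.27 in sham WT, 5.02, 5.37, 4.97 and 5.17 in day 1 KO and 4.64, 4.91, 5.27, 3.41 and 5.13 in day 1 WT. It read 5.27, 4.98, 3.5, 4.21 and 4.93 in day 3 KO, 4.95, 4.30, 4.39 and 4.58 in day 3 WT, 5.15, 5.56, 5.49 and 5.33 in day 7 KO and 5.11, 4.55, 5.32 and 5.06 in day 7 WT. All injured arrays were below all sham arrays, and the lowest were day 1 WT replicate 4 and day 3 KO replicate 3. Against sham the log2 differences of days 1, 3 and 7 were −1.11 ± 0.21, −1.45 ± 0.21 and −0.82 ± 0.21 (SE; adjusted p = 4.15e-05, 4.38e-07 and 0.00148). Without the 3 arrays that stand apart the first 2 of these were −0.95 and −1.21.

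Cacna1e, the R-type pore, changed by −0.96 ± 0.21 at day 1 (adjusted p = 0.000236), −1.13 ± 0.21 at day 3 and −0.77 ± 0.21 at day 7. Cacna1b, the N-type pore that drives transmitter release and is the target of ziconotide, changed by −0.68 ± 0.15 (adjusted p = 0.000253), −0.94 ± 0.15 and −0.79 ± 0.15. Cacna1a, the P/Q-type pore, gave −0.19 ± 0.08, −0.60 ± 0.08 and −0.74 ± 0.09 (adjusted p = 0.0497, 3.27e-07 and 2.92e-08). Another of its probe sets, 1430408_at, gave 0.32, 0.06 and −0.35 with no call.

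The L-type pore Cacna1c gave −0.18 ± 0.07, −0.14 ± 0.07 and −0.16 ± 0.07 on days 1, 3 and 7 (adjusted p = 0.0165, 0.0536 and 0.043), so the day 3 value was not called. Its second probe set, 1435730_at, gave larger differences of −0.48, −0.90 and −0.83. Cacna1d, an L-type pore that supports pacemaking, gave −0.12, −0.04 and 0.09, with no call on any day, on a probe set of a type (1427974_s_at) that can match other transcripts. Cacna1h, a T-type pore like Cacna1g, gave 0.01 and −0.16 at day 1 and day 3, not called, and fell by 0.39 on the log2 scale at day 7 (adjusted p = 0.0302).

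The tested alpha-2-delta genes, Cacna2d1, Cacna2d2 and Cacna2d3, whose products carry calcium channels to the surface, fell on all 3 days, while Cacna2d4 did not pass the filter. Cacna2d1, the target of gabapentin, read 9.82, 9.65, 9.48 and 9.59 in sham KO, 9.71, 9.90, 9.95 and 9.79 in sham WT, 8.79, 9.16, 8.50 and 8.63 in day 1 KO and 8.19, 8.96, 8.90, 7.75 and 9.02 in day 1 WT. It read 9.24, 9.06, 9.47, 7.96 and 8.86 in day 3 KO, 8.83, 8.73, 8.45 and 8.97 in day 3 WT, 9.11, 9.27, 9.33 and 9.27 in day 7 KO and 8.77, 8.78, 9.10 and 9.07 in day 7 WT. No injured array reached the lowest sham array (9.48), although day 3 KO replicate 3 came close to it at 9.47. That array had the highest mean of 13 skeletal muscle genes (13.19), and the part of muscle RNA in its Cacna2d1 value was not tested. The log2 difference of Cacna2d1 was −1.07 ± 0.17 at day 1 (adjusted p = 3.03e-06), −0.90 ± 0.17 at day 3 and −0.65 ± 0.17 at day 7. Cacna2d2 gave −0.84 ± 0.16, −1.23 ± 0.16 (adjusted p = 7.47e-08) and −0.84 ± 0.16 on the same days. Cacna2d3 gave −0.45 ± 0.14, −1.34 ± 0.14 (adjusted p = 1.08e-09) and −0.84 ± 0.14.

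The beta subunits Cacnb4 and Cacnb2, which bind the pore from inside the cell and set its gating, fell most at day 3. Cacnb4 ranged from 10.04 to 11.19 in KO and from 10.85 to 11.11 in WT at day 3, against 11.96 to 12.14 in sham KO and 11.84 to 12.14 in sham WT. Its log2 difference was −0.54 ± 0.12 at day 1, −1.17 ± 0.12 at day 3 (adjusted p = 2.04e-09) and −0.68 ± 0.13 at day 7. Cacnb2 gave −0.42 ± 0.10, −0.94 ± 0.10 (adjusted p = 4.27e-09) and −0.79 ± 0.11. Both genes had all day 3 and day 7 arrays below all sham arrays.

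The Cacng genes gave 3 different courses. Cacng2 encodes stargazin, which brings AMPA receptors to synapses. It read 9.50, 9.83, 9.63 and 9.59 in sham KO, 9.55, 9.63, 9.47 and 9.50 in sham WT, 9.31, 9.47, 9.75 and 9.64 in day 1 KO and 9.41, 8.94, 9.31, 9.15 and 9.49 in day 1 WT. It read 8.59, 8.69, 7.63, 8.05 and 8.90 in day 3 KO, 8.59, 8.65, 8.46 and 8.63 in day 3 WT, 8.72, 8.76, 8.72 and 8.70 in day 7 KO and 8.74, 9.03, 8.66 and 8.49 in day 7 WT. Day 1 arrays overlapped sham arrays and the later ones lay below them. The log2 difference on days 1, 3 and 7 was −0.19 ± 0.12, −1.11 ± 0.12 and −0.86 ± 0.12 (adjusted p = 0.172, 1.98e-09 and 6.06e-07). The day 1 value was not called. On probe set 1420596_at, which was called on all 3 days, the differences were −0.52, −1.54 and −1.14.

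Cacng5, an auxiliary protein of AMPA receptors of the second TARP class, rose at day 1 and fell at day 7. It read 6.62, 6.89, 6.71 and 6.64 in sham KO, 6.46, 6.44, 6.69 and 6.57 in sham WT, 7.73, 8.05, 7.52 and 7.27 in day 1 KO and 7.52, 7.81, 7.75, 8.06 and 7.37 in day 1 WT. It read 6.37, 7.03, 6.86, 7.05 and 7.05 in day 3 KO, 6.90, 6.34, 6.59 and 7.11 in day 3 WT, 6.11, 6.21, 6.13 and 6.08 in day 7 KO and 5.89, 5.71, 5.55 and 5.69 in day 7 WT. Every day 1 array was above and every day 7 array below every sham array, while day 3 arrays overlapped sham. The log2 difference from sham was 1.04 ± 0.11 on day 1 (2.06-fold higher), 0.17 on day 3 (not called) and −0.71 ± 0.12 on day 7, with adjusted p = 5.32e-09, 0.162 and 5.2e-06.

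Cacng4, a TARP of the first class and a neighbour of Cacng5 on mouse chromosome 11, went the other way at day 1. It ranged from 5.79 to 6.16 in KO and from 5.83 to 6.22 in WT at day 1, against 6.66 to 6.77 in sham KO and 6.51 to 6.96 in sham WT. The log2 difference from sham was −0.71 ± 0.12 on day 1, −0.35 on day 3 and −0.21 on day 7 (adjusted p = 7.44e-06, 0.00862 and 0.124), and the day 7 value was not called. Cacng1, the third coding gene of this stretch, did not pass the filter.

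**Figure D3:**
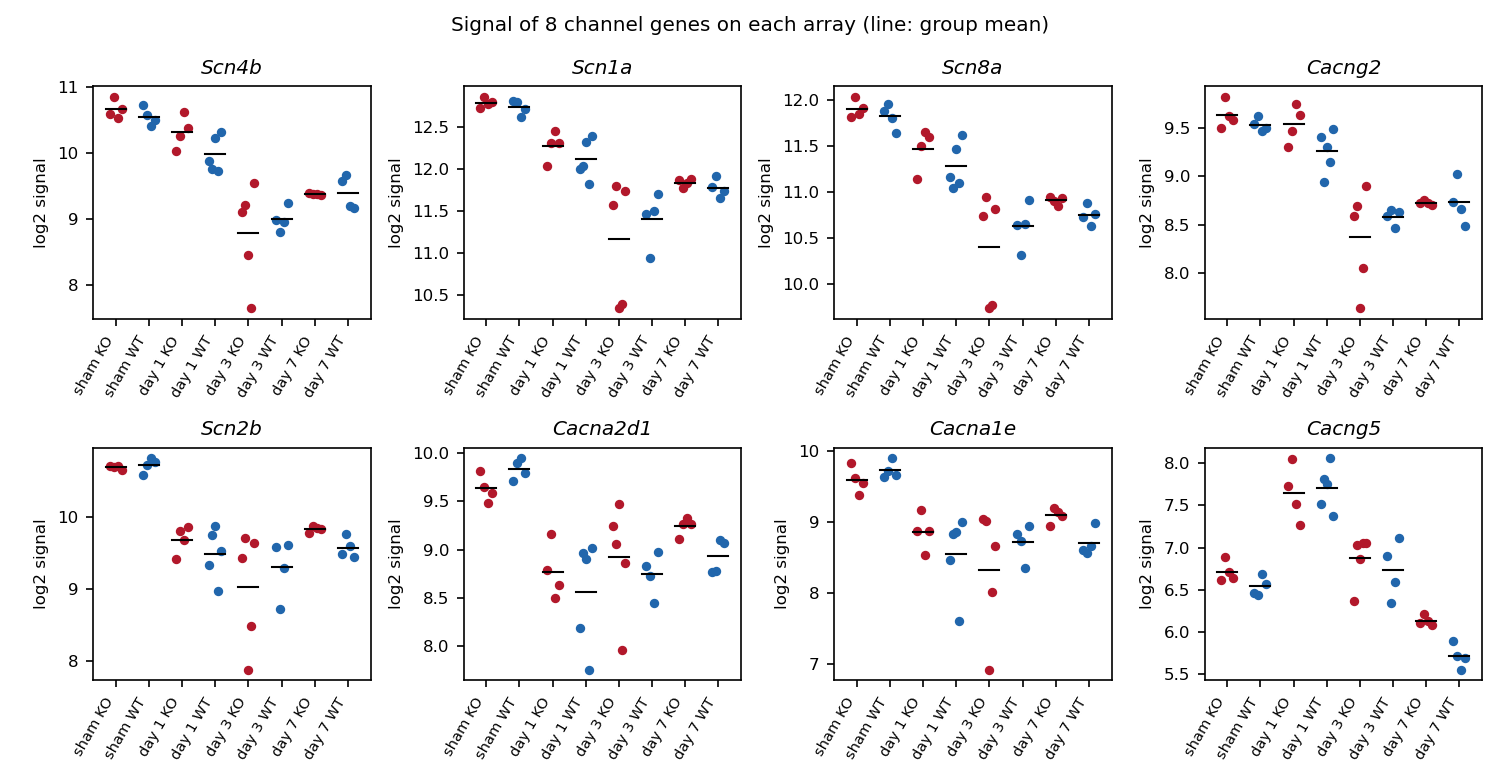
Log2 signal (vertical axis) of Scn4b, Scn1a, Scn8a, Cacng2, Scn2b, Cacna2d1, Cacna1e and Cacng5 on every array, by group in the order sham, day 1, day 3 and day 7 with KO left of WT; lines are group means and each panel has its own axis, which does not start at 0. Scn4b and Cacng2 reach their lowest values at day 3 (7.65 and 7.63), Scn2b and Cacna2d1 are already low at day 1, and Cacng5 peaks at day 1 (8.06).

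The members were also compared between injured days. Between day 1 and day 3, 11 members fell and 2 rose, beside 33.6% and 25.6% of all genes, with a member median of −0.30. Scn4b (−1.26 ± 0.16, adjusted p = 1.79e-07), Cacng2 (−0.93 ± 0.12, adjusted p = 1.48e-07), Scn1a (−0.91 ± 0.15), Cacna2d3 (−0.89 ± 0.13), Cacng5 (−0.87 ± 0.11), Scn8a (−0.86 ± 0.13), Cacnb4 (−0.63 ± 0.12) and Cacnb2 (−0.52 ± 0.10) fell most over this step. Scn2b fell by 0.42 (adjusted p = 0.0434), Cacna1a by 0.41 and Cacna2d2 by 0.40. Scn2a, Scn3a, Scn3b, Cacna1b, Cacna1e, Cacna1g and Cacna2d1, all called lower at day 1, had no called change over this step. Cacng4 (0.36 ± 0.11, adjusted p = 0.00969) and Scn7a (0.72 ± 0.25, adjusted p = 0.015) rose over it. Without the 3 arrays that stand apart the step in Scn7a was 0.30 and its call was lost (adjusted p = 0.169), while that in Scn4b was −1.04 and that in Cacng2 −0.76.

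Between day 3 and day 7, 6 of the 24 tested members rose (25%) and 1 fell (4.17%), beside 23.9% and 20.7% of all genes. The share that rose was thus near that of all genes. The 6 were Cacna1g (0.63 ± 0.21), Scn2b (0.53 ± 0.18), Scn1a (0.52 ± 0.16), Cacna2d3 (0.50 ± 0.14), Cacnb4 (0.49 ± 0.12) and Scn4b (0.49 ± 0.16). All 6 were still called lower at day 7 than in sham. Cacng5 fell over the same step (−0.88 ± 0.11, adjusted p = 4.65e-07). Without the 3 arrays that stand apart 4 members rose and 2 fell. The steps of Scn2b and Scn4b were then 0.25 each and were not called (adjusted p = 0.0604 for Scn2b and 0.0651 for Scn4b). Those of Cacna1g (0.39), Scn1a (0.25), Cacna2d3 (0.29) and Cacnb4 (0.29) were smaller and still called. The count of 7 called members became 11 without day 3 KO replicate 1 and 12 without replicate 2 or replicate 5 of that group.

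Genes whose products anchor, regulate or work with these channels were followed as lists, each described by its counts. Of all genes tested, 37.8%, 42.8% and 39% were called lower on days 1, 3 and 7. Of 13 sodium channel anchors and partners, 11 were tested: 9, 9 and 7 fell on days 1, 3 and 7, with medians of −0.51, −1.0 and −0.62. The intracellular FGFs, which bind sodium channel tails, were among them. Fgf12 gave −0.52, −1.39 ± 0.13 and −0.88, Fgf13 gave −1.10, −1.30 ± 0.15 and −0.89, and Fgf11 gave −0.51, −1.26 ± 0.12 and −1.03. Nrcam, a cell adhesion molecule of nodes that is also made by other cells, rose by 1.42 ± 0.09, 1.72 ± 0.09 and 0.59 ± 0.09 on days 1, 3 and 7 (adjusted p = 1.64e-16 on day 3). Nfasc, another node adhesion molecule, was the other gene called higher at day 1 (0.47) and day 7 (0.66), and it is named here after its values were seen.

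Of 20 calcium channel partners at the release site and regulators of the channel, 17 were tested. On days 1, 3 and 7, 12, 13 and 13 fell, with medians of −0.46, −0.84 and −0.69, beside 37.8%, 42.8% and 39% of all genes called lower. Jph4, a junctophilin that ties the surface membrane to calcium stores, gave −1.26, −1.65 ± 0.16 and −0.96. The active zone genes Pclo and Rims1 fell by 1.47 ± 0.17 and by 1.45 ± 0.19 at day 3. Rrad, a small GTPase that restrains calcium channels through their beta subunit, rose by 2.41 ± 0.25, 3.34 ± 0.25 and 2.19 ± 0.25 on days 1, 3 and 7 (adjusted p = 1.15e-12 on day 3). Its relative Gem, named after its values were seen, rose at day 1 alone among the injured days (0.64 ± 0.18, adjusted p = 0.00244).

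The sodium leak channel and the AMPA receptor subunits were lower as well. Nalcn, the leak pore that sets resting excitability, gave −0.73, −1.25 ± 0.15 (adjusted p = 1.27e-08) and −0.75. Its partner Unc80 gave −0.61, −1.23 ± 0.15 and −0.83. All 5 tested genes of the AMPA receptor list fell on every day, with medians of −0.63, −1.12 and −0.77. The shares of all genes called lower were 37.8%, 42.8% and 39%. Gria2, the subunit that makes the receptor impermeable to calcium, gave −0.88, −1.19 ± 0.17 and −0.82, Gria3 gave −0.63, −1.18 and −0.78, Gria4 gave −0.61, −1.12 and −0.77, and Gria1 gave −0.78, −0.87 and −0.48.

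The calls were also counted within each genotype. At day 1, 10 members fell and 1 rose in KO cords (26.3% and 23.1% of all genes), and 17 fell and 1 rose in WT cords (31.8% and 26.6%). Cacng5 was the riser in both, by 0.92 ± 0.16 in KO and by 1.16 ± 0.15 in WT. At day 3, 17 fell and 1 rose in KO cords (38.4% and 30.7% of all genes), and 19 fell and 0 rose in WT cords (37% and 29%). At day 7, 12 fell in KO cords (30.1% of all genes, with 22.9% higher) and 19 fell in WT cords (32.6%, with 25.4% higher), and 0 members rose in either. The lower count in KO than in WT at day 1 is not a tested difference. Without the 3 arrays that stand apart the KO count was 17 rather than 11 at day 1 and 18 rather than 12 at day 7. None of those 3 arrays is in day 1 KO, day 7 KO or sham KO. These counts changed through the estimate of spread, which the fit shares over all groups. The KO day 1 count was 6 without day 1 KO replicate 1, 7 without the sham KO library labelled replicate 2, and 7 without sham KO replicate 3.

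No member passed the test between KO and WT in the fit with equal array weights. The count was 0 of 24 in sham, on days 1, 3 and 7 and over the mean of the 4 conditions, beside 0.0667%, 0.709%, 0.0334%, 0.0334% and 0.133% of all genes called in either direction by limma. At an unadjusted p under 0.05 the counts were 1, 2, 0, 2 and 3. The difference in injury response between KO and WT, tested as an interaction, was also called for 0 members at day 1, day 3 and day 7 (0.108%, 0% and 0.00834% of all genes), with 2 members at an unadjusted p under 0.05 on each day. A missed threshold does not show that the genotypes were alike. For Scn4b the 95% interval of the KO minus WT difference was −0.37 to 0.59 in sham cords, −0.12 to 0.79 on day 1, −0.67 to 0.25 on day 3 and −0.5 to 0.47 on day 7.

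The members nearest to a genotype call were these. In sham cords Cacna1c gave a KO minus WT difference of −0.28 (95% interval −0.47 to −0.08, adjusted p = 0.834), and −0.27 without the library labelled sham KO replicate 2. Next in sham came Cacnb2 (−0.28, and −0.27 without that library) and Scn7a (0.47, and 0.62 without it). At day 1, Cacna1h gave 0.45 (0.29 without the 3 arrays that stand apart) and Cacnb2 gave 0.31 (adjusted p = 0.53 each), followed by Cacna2d2 at 0.43 (adjusted p = 0.597). At day 3, Cacna1a gave −0.24 (adjusted p = 0.476) and −0.04 without the arrays that stand apart. Cacna2d3 gave −0.37 and Scn3a −0.44 on that day, and 0.06 and 0.05 without those arrays. At day 7, Cacng5 gave 0.42 (95% interval 0.09 to 0.75, adjusted p = 1), with 6.08 to 6.21 in KO and 5.55 to 5.89 in WT. Scn7a gave 0.66 at day 7 and 0.45 over the 4 conditions. The latter was 0.24 without the 3 arrays that stand apart and 0.48 without the library labelled sham KO replicate 2. Scn9a gave −0.44 at day 7, with 5.63 to 5.92 in KO and 6.09 to 6.5 in WT, and −0.22 over the 4 conditions (adjusted p = 0.521). Over the 4 conditions Scn9a gave −0.28 without the 3 arrays that stand apart (adjusted p = 0.0548) and −0.25 without the library labelled sham KO replicate 2 (adjusted p = 0.464). With arrays weighted by their quality Scn9a was called at day 7 (−0.47, adjusted p = 0.047) and over the 4 conditions (−0.29, adjusted p = 0.0223).

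The day 3 KO group was the most variable. It had the largest standard deviation of the 8 groups for 18 of the 24 members. Across members the median KO minus WT difference at day 3 was −0.22, and it was 0.17 without the 3 arrays that stand apart. It was 0.00 in sham, 0.20 at day 1 and 0.18 at day 7 over all arrays. Of the interactions, Cacnb2 had the smallest p at day 1 (0.59, adjusted p = 0.616). Cacna1c had it on day 3 (0.34) and day 7 (0.37), with adjusted p = 0.748 and 1. Without the library labelled sham KO replicate 2 these interactions were 0.58 for Cacnb2, and 0.33 and 0.36 for Cacna1c.

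**Figure D4:**
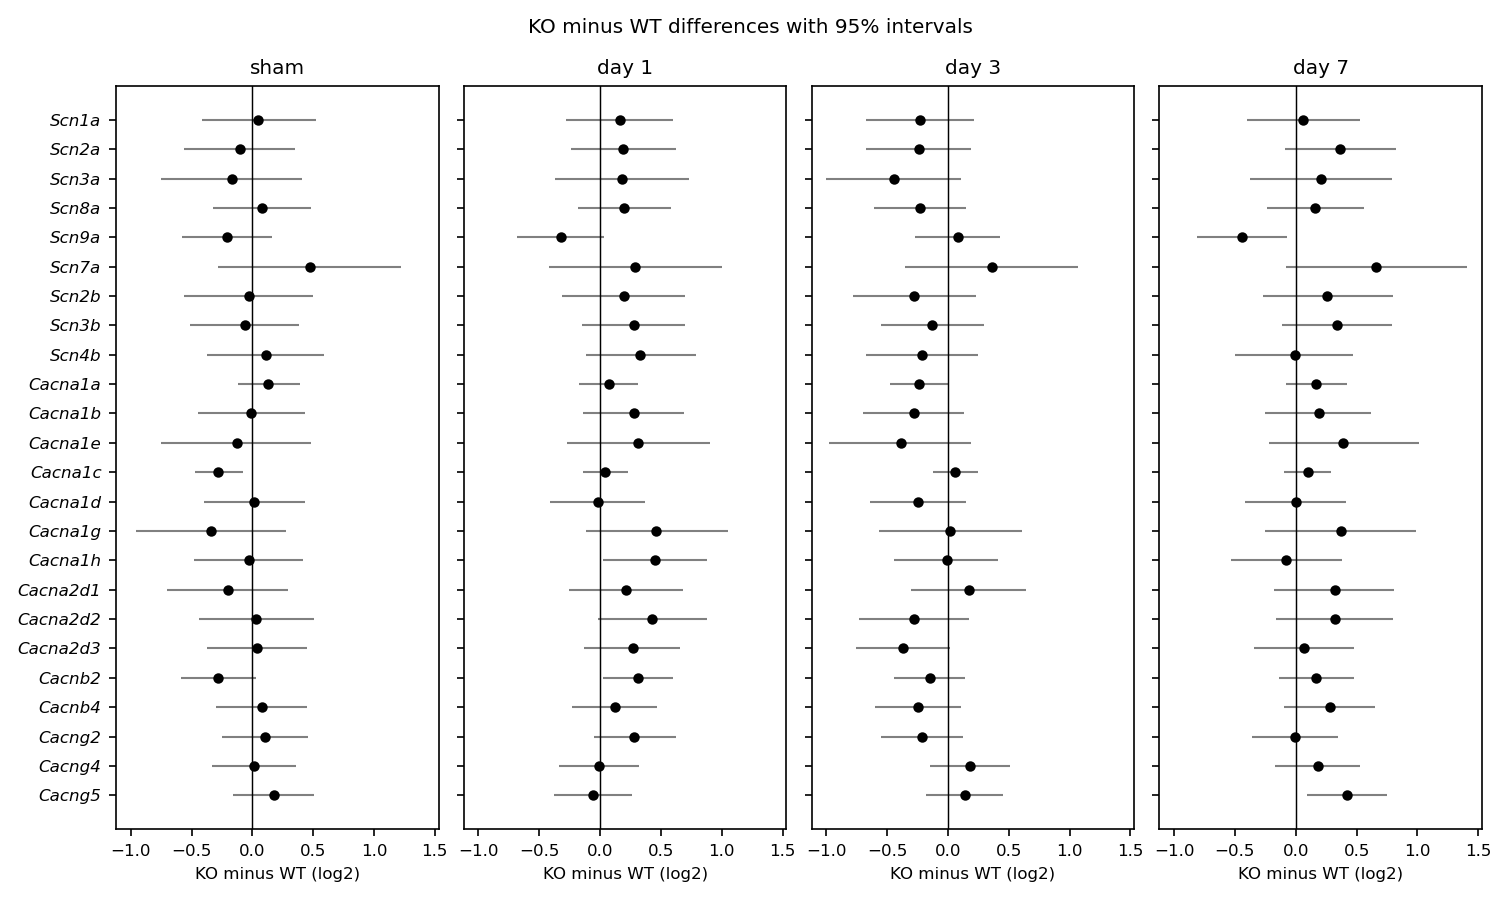
KO minus WT log2 difference (horizontal axis) of the 24 tested channel genes in the panels sham, day 1, day 3 and day 7; points are limma estimates and lines their 95% intervals. All intervals include 0 except those of Cacna1c in sham, Cacna1h and Cacnb2 at day 1, and Cacng5 (0.42) and Scn9a (−0.44) at day 7, and no difference passed the adjusted threshold.

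Of the members, 11 stayed below the filter, and several of them are channels of other tissues. Cacna1s, Cacng1 and Cacnb1 encode the pore, gamma and beta subunits of the skeletal muscle calcium channel, and Cacng6 a related gamma subunit. On day 3 KO replicate 3 they read 6.76 for Cacna1s, 6.76 for Cacng1, 5.61 for Cacnb1 and 5.49 for Cacng6. The mean of 13 skeletal muscle genes was 13.19 on that array. On day 3 KO replicate 1, where that mean was 10.78, they read 3.08 for Cacna1s, 3.84 for Cacng1, 4.39 for Cacnb1 and 2.33 for Cacng6. On sham KO replicate 4, with a muscle mean of 10.32, they read 2.28, 2.22, 3.33 and 2.97 in the same order. The muscle mean differed widely between arrays of a group, averaging 8.93 in sham KO and 5.91 in sham WT, 4.44 in day 1 KO and 4.60 in day 1 WT, 7.59 in day 3 KO and 7.43 in day 3 WT, and 4.46 in day 7 KO and 6.00 in day 7 WT. None of the 13 muscle genes was under 4 on every array, and 11, 0 and 3 of them were called lower than sham on days 1, 3 and 7. The part of muscle RNA in the values of the tested members was not tested.

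**Figure D5:**
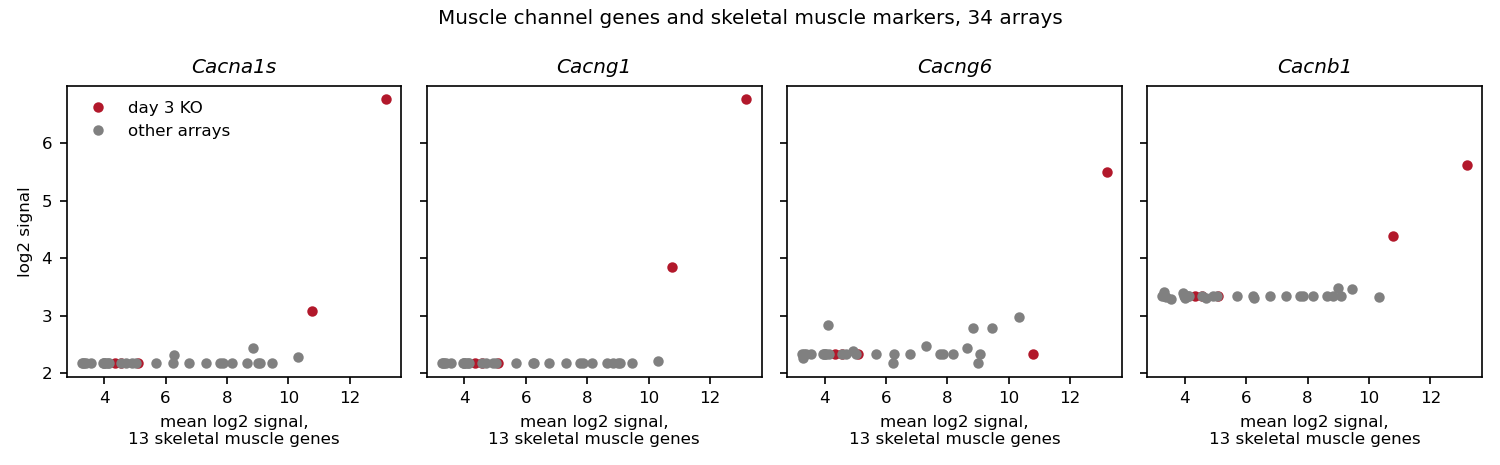
Log2 signal (vertical axis) of Cacna1s, Cacng1, Cacng6 and Cacnb1 against the mean log2 signal of 13 skeletal muscle genes (horizontal axis) on each of 34 arrays, with day 3 KO arrays in red and all others in grey. The array at the far right, day 3 KO replicate 3 (muscle mean 13.19), is the highest for all 4 genes.

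Scn10a and Scn11a encode the sodium channels of peripheral pain-sensing neurons. Scn10a stayed between 2.17 and 2.22 on all arrays. Scn11a read 5.22 on day 3 KO replicate 3 and 2.19 to 2.59 on all others. On the same array the mean of 4 sensory ganglion genes was 3.32, against 2.36 to 2.74 elsewhere. None of the 4 passed the filter. Trpv1, P2rx3 and Isl2 were under 4 on every array, so only Avil among them reached 4 anywhere. Cacng8, a TARP of the first class, ranged at day 1 from 3.15 to 4.10 in KO and from 3.25 to 3.94 in WT, against 2.98 to 3.04 in sham KO and 3.00 to 3.12 in sham WT. Cacna1f and Cacna2d4, known from photoreceptor synapses, stayed at 2.17 and between 2.51 and 2.82. Cacng3 and Cacng7 ranged from 2.18 to 2.21 and from 2.26 to 3.43.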

How the data were processed

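RNA of 34 thoracic cords was hybridised to Affymetrix mouse arrays with 45101 probe sets, 64 of them controls. The deposited values were read as log2 from their range (2.17 to 15.9), and the authors computed them with GCRMA per the submitters' processing notes, with no version stated. They were used as deposited; 33.7% of values lie within 0.1 of the lowest (2.17), so a difference from a group near that floor is understated. Groups came from the titles.

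Probe sets at a log2 signal of at least 4 on at least 4 arrays were tested (24573). The 8 groups entered a single model over all arrays in limma 3.58.1 (lmFit, eBayes; R 4.3.3), with Benjamini-Hochberg adjustment over all probe sets and a threshold of 0.05, and the fit was first tested on simulated data. Gene symbols came from the platform table. Values of further probe sets are given for only some members. The number of arrays limits the precision.

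Members and lists were chosen with earlier results of these data known. The named genes were the 8 largest decreases and 8 largest increases called among members in each injury comparison and time step, members called between genotypes or else the 3 with the smallest p, and 4 genes per partner list with the largest day 3 difference. Alternatives were another filter, quantile normalization, an intensity trend, array weights, only the groups compared, a replicate block, both readings of the conflicting labels, averaging the probe sets of a gene and each array left out. Dropping the 3 arrays that stand apart was added after the data were seen.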

Additional observations from a re-analysis of the deposited data

Results flagged for a closer look

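In 8 cases a sample lay far from the other arrays of its group by Dixon's test for an outlier, which chance meets in about 5% of groups. Of 192 combinations of a tested member and a group, 5 met it. Cacna1c read 6.12 on day 3 KO replicate 2, against 5.57 to 5.63 on the other arrays of that group. Cacna1h read 5.18 on sham WT replicate 1, against 5.97 to 6.12. Cacng5 read 6.37 on day 3 KO replicate 1, against 6.86 to 7.05. Scn3b read 7.66 on sham KO replicate 3, against 7.87 to 7.90. Scn7a read 3.98 on day 1 WT replicate 4, against 5.32 to 5.63.

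The other 3 cases were members below the filter, and all were on day 3 KO replicate 3. Such members were examined only if they reached a log2 signal of 4 on some array. Only high values of at least 4 were kept. Each of the 3 reached 4 on 1 array alone, so the choice of members largely fixed which array was flagged. The chance rate given above does not apply to them. Cacna1s read 6.76 on day 3 KO replicate 3, against 2.17 to 3.08 on the other arrays of that group. Cacng6 read 5.49, against 2.33 on each of the others. Scn11a read 5.22, against 2.20 to 2.41.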

How the results depend on the processing

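The counts of members called in the injury comparisons over both genotypes stayed within 1.5 times the reported counts under every alternative. Leaving out each array in turn gave ranges of 17 to 19, 19 to 21 and 18 to 21 for days 1, 3 and 7. It gave 6 to 15 for KO at day 1 (6 without day 1 KO replicate 1, 7 without the sham KO library labelled replicate 2, and 7 without sham KO replicate 3), 17 to 18 for WT at day 1, 17 to 19 for KO and for WT at day 3, 12 to 13 for KO and 19 to 20 for WT at day 7, 11 to 14 for day 3 minus day 1, 6 to 12 for day 7 minus day 3 (11 without day 3 KO replicate 1, 12 without replicate 2 or 5), and 0 for every genotype and interaction comparison. The KO day 1 count of 11 became 7 without a filter, 7 with the conflicting labels read by source and time, and 17 without the 3 arrays that stand apart. None of those 3 arrays is in day 1 KO or sham KO, and the estimate of spread is shared by all groups. The WT day 1 count of 18 became 10 with the conflicting labels read by source and time, which places day 1 arrays among sham and day 7. The count of 7 for day 7 minus day 3 became 4 in a fit of only the groups compared and 11 when probe sets of a gene were averaged. Array weights gave 1 call in place of 0 for KO minus WT at day 7 and 1 over the 4 conditions, both Scn9a (−0.47, adjusted p = 0.047, and −0.29, adjusted p = 0.0223).

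Replicate numbers are shared between groups, but same-numbered arrays did not deviate together (median correlation 0.005 over 113 pairs, −0.454 to 0.43). A fit with the replicate number as a block gave 12 calls in place of 7 for day 7 minus day 3 and changed no other count by over 1.5 times. Scn3a KO minus WT at day 3 reversed to 0.09 with array weights and to 0.05 without the 3 arrays, and Cacna2d3 reversed to 0.06 for that comparison and to 0.02 for the interaction without them. The call of Scn9a at day 3 was also lost with quantile normalization (0.27), array weights (0.20), only the groups compared (0.33), the mean of its probe sets (0.26) and without sham KO replicate 3 (0.28). The causes were not tested. Of 3011 recomputed values of named genes, 2990 kept direction and side of the threshold.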
